A study of Homo sapiens with 6 samples.

Results

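SR proteins and heterogeneous nuclear ribonucleoproteins (hnRNPs) are the 2 large families of RNA-binding proteins that set splice site choice in human cells, and 45 of their genes, of 20046 protein-coding genes annotated in GENCODE version 44, were examined here as targets of DDX5. The genes were taken from a list of names, not by a cutoff on measured values. That list was chosen with earlier results of these data known. It held 11 classical SR protein genes (SRSF1 to SRSF11), 6 SR-like genes and 28 hnRNP genes. An interval of a deposited peak list was counted for a gene when its summit, the base of strongest enrichment, lay between the annotated ends of that gene.

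DDX5, a DEAD-box RNA helicase, had been precipitated with an antibody against it from nuclear extracts of RH30, and the RNA that came down with it had been sequenced (RIP-seq). RH30 is an established line of alveolar rhabdomyosarcoma that carries the PAX3-FOXO1 gene fusion, and all samples are of this 1 line, with no treatment or genotype compared. The 3 DDX5_IP samples, which the labels call biological replicates, have a peak list each. The series also holds 3 INPUT samples with no antibody, which were not analysed here.

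SR proteins carry RNA recognition motifs and tails rich in serine and arginine, and mostly promote the use of nearby splice sites when they sit on exons. Many hnRNPs act in the opposite sense, as repressors that coat introns or exons, and several also have roles in RNA stability, export and translation. Genes of both families are known for poison exons, alternative exons that bring in a premature stop codon and send the transcript to nonsense-mediated decay, and for introns kept in nuclear RNA. DDX5 is itself a cofactor of splicing and of microRNA processing.

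The lists held 23715, 23651 and 45832 intervals on the main chromosomes in replicates 1, 2 and 3, so replicate 3 was the longest by far. All 8 genes examined as markers, MYOD1, MYOG, MYF5, DES, CDH15 and CHRNA1 of the muscle lineage and the fusion partners PAX3 and FOXO1, had an interval in every list. The same held for 25.7% of all protein-coding genes. The fold enrichment of an interval is the authors' own ratio, and its control is not given in the sources used here. It was used to describe, rank and filter intervals and to compare them with intervals of other genes. The depth behind the lists is unknown, and the library kit did not keep strand, so a summit at 2 overlapping genes cannot be given to either.

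An interval was present in 1 or more lists for 38 of the 45 genes, and in every list for 22 (48.9%). Among all protein-coding genes 51.6% had an interval in at least 1 list and 25.7% in every list, and of the genes with an interval in at least 1 list 49.8% had one in every list. The share of the SR and hnRNP genes thus stood above that of all annotated genes, while 22 of 38 is nearer to that of genes with any interval. The median length of the MANE Select transcript, the transcript chosen by NCBI and Ensembl to stand for a gene, was 3628 bases for the 45 genes, 2955 for protein-coding genes and 4374 for protein-coding genes with an interval in every list. The part of transcript length or level in the count was not tested. Replicates 1, 2 and 3 held 28, 26 and 37 of the genes, and all 7 genes found in 1 list only were in replicate 3.

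Of 28 hnRNP genes 17 (60.7%) had an interval in every list, and so did 5 of 17 SR and SR-like genes (29.4%), beside 25.7% of all protein-coding genes. The 5 were SRSF11, the only one of the 11 classical SR genes, and 4 of the 6 SR-like genes. The difference between the families was not tested.

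The 45 genes held 126, 87 and 183 intervals in replicates 1, 2 and 3, on average 132 ± 48.3 (SD, n = 3). Intervals that shared at least 1 base across lists were joined into 226 regions, of which 46 (20.4%) were found in every list, against 8556 of 60510 (14.1%) for other protein-coding genes. The 46 regions lay in 16 genes. SRRM1, SRRM2, SON and HNRNPUL1 together held 29 of them and 36.1% of all intervals, PTBP1 held 5, HNRNPM held 2, and 10 genes held 1 each. Leaving out SRRM1, SRRM2, SON and HNRNPUL1, a choice made after seeing the data, left 17 regions in every list. As a share of the regions that remained, these were below the 14.1% of other protein-coding genes. SRRM1, SRRM2, SON and HNRNPUL1 held 29 of the 46 regions, so a lower share without them was built into the choice. Other protein-coding genes were not trimmed in the same way, so the drop does not show what the higher share rested on. In 30 of the 46 regions the summits of the 3 lists lay within 100 bases of each other. A further 6 genes, SRSF11, HNRNPK, PTBP2, PTBP3, RBMX and HNRNPUL2, had an interval in every list but no place common to all.

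**Figure D1:**
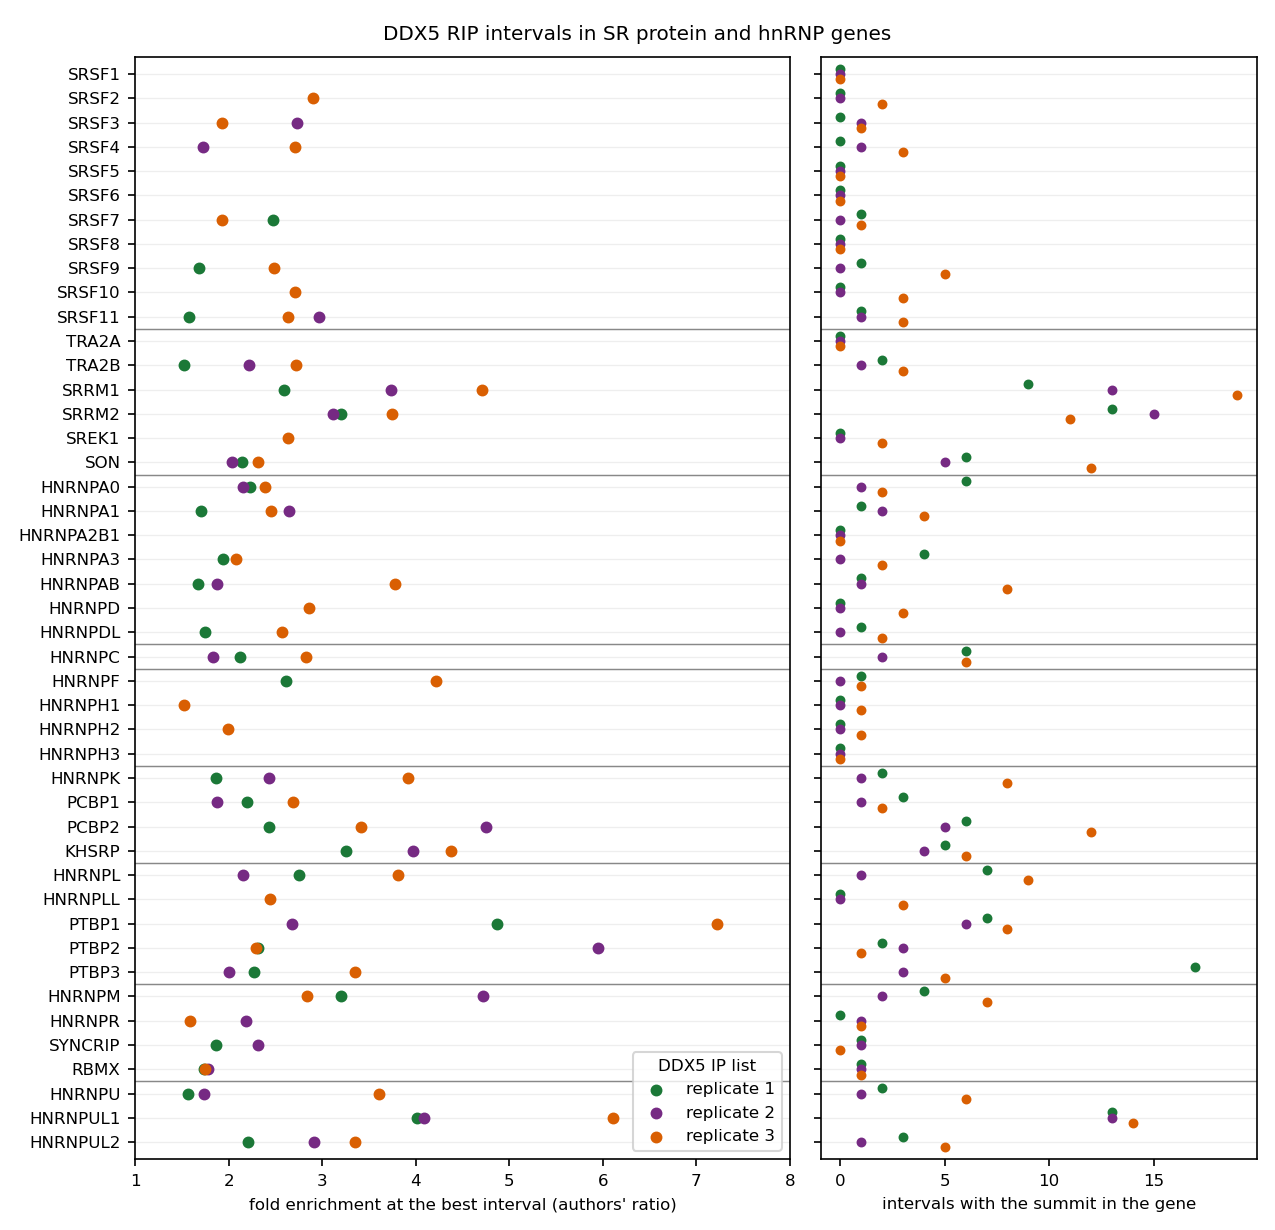
Fold enrichment of the best interval of each gene in each replicate (left, the authors' ratio, linear axis; a gene's best interval in a list has the highest −log10 q there) and the number of intervals with the summit in the gene (right). Points are single lists, and grey lines part the groups from the classical SR genes at the top to the hnRNP U genes at the bottom. PTBP1 in replicate 3 reaches 7.22, SRRM1 holds up to 19 intervals in a list, and no classical SR gene holds more than 5 in a list.

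Sequences at the summits are given here for the coding places where the summits of the 3 lists lay within 10 bases of each other and for 2 places outside the protein-coding transcript that are described below. All were read from the hg38 genome on the plus strand, which is the strand of these genes. Capitals mark the bases from the first to the last summit of the lists that share the place. In exon 6 of SRRM1 (chr1:24651500-24651529) the 3 summits lay within 2 bases, in exon 15 of SRRM1 (chr1:24670200-24670229) within 3, and in exon 12 of SRRM2 (chr16:2769003-2769032) within 8. In exons 13 and 14 of HNRNPUL1 (chr19:41304162-41304191 and chr19:41305695-41305724) they lay within 8 and 10 bases. The SRSF3 lines are the single summits of replicates 2 and 3 in an exon of its decay transcript (chr6:36600015-36600044 and chr6:36599956-36599985), and the PTBP2 line is the place shared by replicates 1 and 2 in a retained intron (chr1:96805240-96805269).
SRRM1 exon 6: accaagagccggaGTCcttcccctgctcca
SRRM1 exon 15: aaaagcccccagcACCTccatcccccgtcc
SRRM2 exon 12: cagccccaccCCAGCCCCAaaggaggctgt
HNRNPUL1 exon 13: gaaccccccaGGGGCCAGCacctacaataa
HNRNPUL1 exon 14: cctacaaccAGGGAGGTTACagccagggct
SRSF3 decay exon, replicate 2: ccttaaccaaatcgGcagcagccacctcga
SRSF3 decay exon, replicate 3: tcaggttgcaccgcCctttggttcccgagc
PTBP2 retained intron: aggcaaatgtgatcTAatttgcaaatttaa

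The SRRM1 and SRRM2 stretches hold runs of C in all 3 cases, and the HNRNPUL1 stretches hold runs of G at the summit. The HNRNPUL1 stretch of exon 13 also holds a longer run of C just before its run of G. Both HNRNPUL1 places lie in the overlapping gene TGFB1 too. The PTBP2 stretch is poor in C and G, with a GC content of 26.7%. All these stretches are single places and were not compared with other places one by one.

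The classical SR proteins are the founding splicing activators of the family. SRSF1, SRSF5, SRSF6 and SRSF8 had no interval in any list. SRSF2 had 2 intervals and SRSF10, a splicing repressor when dephosphorylated, had 3, all in replicate 3, and SRSF3, SRSF4, SRSF7 and SRSF9 were each in 2 lists. The whole group held 3, 3 and 18 intervals in replicates 1, 2 and 3, so 18 of its 24 intervals came from replicate 3, the longest list.

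SRSF11, an SR protein with a U2AF-binding role, had best intervals of 1.57, 2.96 and 2.63-fold in replicates 1, 2 and 3, averaging 2.39 ± 0.73 (SD, n = 3). They lay in the 3' UTR, an intron and a coding exon, so no place was common to the 3 lists, though replicates 1 and 3 shared a 3' UTR region near the end of the gene. SRSF9, an SR protein close to SRSF1 in sequence, had 1 interval in replicate 1, 0 in replicate 2 and 5 in replicate 3, and its last exon also overlaps the gene GATC. SRSF4 had 1 interval in replicate 2 and 3 in replicate 3 and SRSF7 1 each in replicates 1 and 3, with no place in common. Both SRSF2 intervals, at 2.90 and 2.37-fold, lay where other genes overlap it.

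The MANE Select transcripts of the classical SR genes had a median of 3959 bases, against 3628 over all 45 genes, and the length ranged from 1152 bases for SRSF9 to 7656 for SRSF10. Across the 45 genes the number of intervals had a Spearman's rho of 0.21 with transcript length and of 0.0016 with the longest exon, given as a description over genes that share the same 3 lists. SRSF1, with 5343 bases, had no interval, and PCBP2, with 3159, had 23 over the 3 lists.

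**Figure D2:**
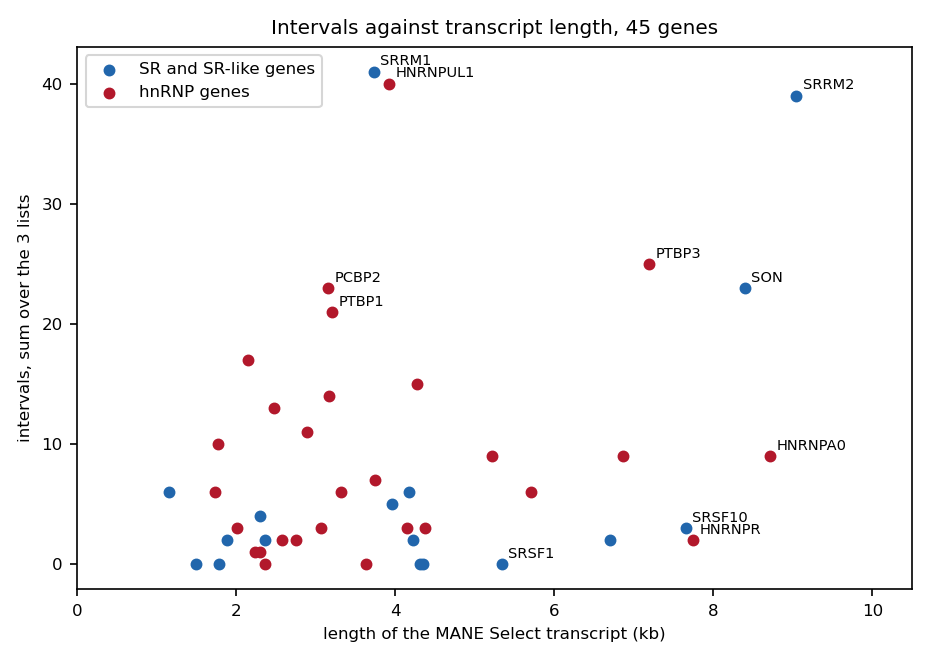
Number of intervals summed over the 3 lists (vertical axis) against the length of the MANE Select transcript in kilobases (horizontal axis), 1 point per gene, with SR and SR-like genes in blue and hnRNP genes in red. SRRM1 (41 intervals) and HNRNPUL1 (40) stand far above genes of like length, and SRSF1 lies at 0.

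SRSF3, a small SR protein that regulates its own poison exon, had all its summits outside the protein-coding transcript. It had no interval in replicate 1, 1 in replicate 2 (chr6:36599739-36600080, 2.73-fold) and 1 in replicate 3 (chr6:36599925-36600071, 1.92-fold). Both summits lay in a 456-base exon (chr6:36599821-36600276) that is part of a transcript annotated as a target of nonsense-mediated decay and sits between exons 3 and 4 of the MANE Select transcript. The summits were 209 and 150 bases from the start of that exon, 59 bases apart, and the intervals covered 260 and 147 of its bases. The last exon of SRSF3, which is 3639 bases long, had no interval in any list. Transcripts that keep the intron also cover the exon, so reads from these and from the decay transcript cannot be told apart, and the replicate 3 interval has a fold and p that 10 or more intervals of its list share.

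The SR-like genes code for large nuclear proteins and for the TRA2 activators. TRA2A had no interval, and SREK1, a regulator that works with other SR proteins, had 2 in replicate 3 only, at 2.63 and 2.39-fold. TRA2B, a splicing activator that binds GA-rich exon elements, had best intervals of 1.53, 2.22 and 2.72-fold in replicates 1, 2 and 3, averaging 2.15 ± 0.60 (SD, n = 3). Its region found in every list lay in the 3' UTR (chr3:185917354-185917671), at 1.53, 2.22 and 1.73-fold with summits 147 bases apart.

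SRRM1, a coactivator that bridges exon-bound SR proteins and the spliceosome, had 9, 13 and 19 intervals in replicates 1, 2 and 3. Its best intervals were at 2.59, 3.74 and 4.70-fold, a mean of 3.68 ± 1.06 (SD, n = 3), all in exon 14 of 17. All 8 of its regions in every list were coding, in exons 6, 7, 8, 9, 12, 13, 14 and 15. The intervals covered 44.9%, 59.0% and 75.8% of the bases of its MANE Select transcript. Of its other regions 6 were in 2 lists and 5 in 1, and 4 intervals had an intronic summit, at 2 places found in replicates 2 and 3.

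SRRM2, a scaffold protein of nuclear speckles, had 13, 15 and 11 intervals in replicates 1, 2 and 3, with best folds of 3.21, 3.11 and 3.75 and a mean of 3.36 ± 0.34 (SD, n = 3). Of its 8 regions in every list 7 were coding, in exons 2, 4, 10, 11 (3 regions) and 12 of 15, and 1 was in the 3' UTR. The widest, 4909 bases long, lay in the very long exon 11 (chr16:2762123-2767031) and was 1 interval in replicate 3. Coverage of the MANE Select transcript was 55.2%, 62.7% and 82.9%.

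SON, the other core protein of nuclear speckles, also has a very long coding exon and had 6, 5 and 12 intervals in replicates 1, 2 and 3. Its best folds were lower than those of SRRM1 and SRRM2, at 2.15, 2.04 and 2.31, a mean of 2.16 ± 0.14 (SD, n = 3). Regions in every list lay at 2 places of exon 3 (chr21:33552745-33553120 and chr21:33555203-33555412) and in the 3' UTR of a shorter transcript (chr21:33557977-33558683), outside the exons of the MANE Select transcript.

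**Figure D3:**
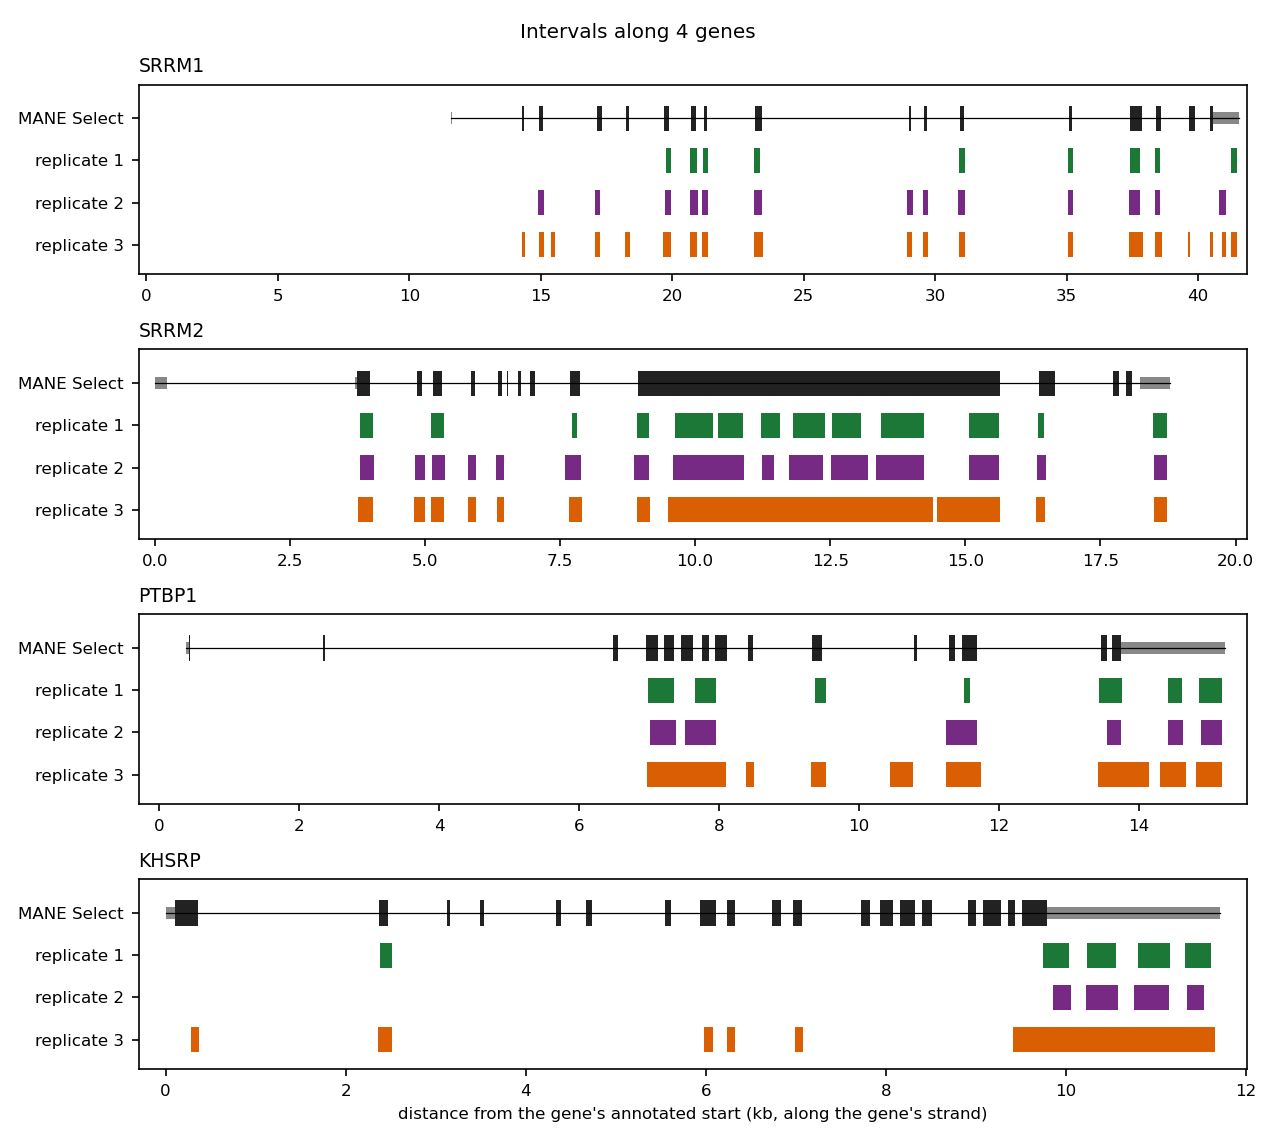
Intervals of the 3 lists along SRRM1, SRRM2, PTBP1 and KHSRP, in kilobases from the annotated gene start along the strand of the gene. The top row of each map is the MANE Select transcript (black boxes coding, grey boxes UTR, line intron) and coloured boxes are deposited intervals. In SRRM1 32 of 41 intervals have the summit in a coding exon, the 4909-base region of SRRM2 fills most of its longest exon, and in KHSRP 9 of 15 intervals have the summit in the 3' UTR and 6 in coding exons.

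The hnRNP A/B/D proteins are abundant packaging factors, many of which repress splice sites. HNRNPA2B1 had no interval in any list, HNRNPD, which binds AU-rich elements, had 3 in replicate 3 only, and HNRNPA3 and HNRNPDL were absent from replicate 2. HNRNPA0, the least spliced of them with 1 exon, had 6, 1 and 2 intervals in replicates 1, 2 and 3, all in its 3' UTR, with best folds of 2.23, 2.15 and 2.39 and a mean of 2.25 ± 0.12 (SD, n = 3). HNRNPAB had 1, 1 and 8 intervals, so replicate 3 supplied most, and its best folds of 1.67, 1.88 and 3.78 spread more widely. Its 3' UTR region in every list overlaps PHYKPL.

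HNRNPA1, a splicing repressor that also binds telomeric and microRNA precursors, had 1, 2 and 4 intervals, with best folds of 1.70, 2.64 and 2.46 in replicates 1, 2 and 3 and a mean of 2.27 ± 0.50 (SD, n = 3). Its region in every list was in the 3' UTR of the last exon (chr12:54284778-54285012), at 1.70, 1.79 and 1.86-fold. All 7 of its summits also lie within the gene record ENSG00000258344, so with summits in no other gene it had none. HNRNPA1 has 74 annotated pseudogenes, and none of them held an interval in any list, a count for which no background was computed.

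HNRNPC, which binds U tracts and keeps cryptic exons out, had 6, 2 and 6 intervals and best folds of 2.12, 1.83 and 2.83 in replicates 1, 2 and 3. Of its 14 intervals 9 lay in the 3' UTR, among them its region in every list (chr14:21210925-21211174, 1.62, 1.83 and 1.64-fold). The hnRNP F/H proteins bind G runs near splice sites, and none of their 4 genes was in every list. HNRNPH3 had no interval, HNRNPH1 and HNRNPH2 had 1 each in replicate 3, at 1.52 and 1.99-fold, and HNRNPF had 1 coding interval in replicate 1 (2.62-fold) and 1 in replicate 3 (4.22-fold) that overlapped each other.

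The genes of the KH-domain proteins HNRNPK, PCBP1, PCBP2 and KHSRP, which apart from KHSRP favour C-rich RNA, were all in every list. KHSRP, which promotes splicing, decay of AU-rich messages and maturation of some microRNAs, had 5, 4 and 6 intervals in replicates 1, 2 and 3. Its best folds were 3.26, 3.97 and 4.38, a mean of 3.87 ± 0.57 (SD, n = 3). They lay in 1 region of 2241 bases over the 3' UTR (chr19:6413163-6415403) that replicates 1 and 2 split into 4 intervals each and replicate 3 gave as 1. The other 6 intervals, 1 in replicate 1 and 5 in replicate 3, had summits in coding exons, and those in exon 2 overlapped.

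HNRNPK had best folds of 1.86, 2.43 and 3.92 in replicates 1, 2 and 3, but in a coding exon in replicate 1 and in 5' UTR sequence in the other two, and no place was common to the lists. PCBP1, a gene of 1 exon, had 3, 1 and 2 intervals with best folds of 2.2, 1.88 and 2.69, all within 1 region (chr2:70087750-70089104) that also lies in PCBP1-AS1. PCBP2 had 6, 5 and 12 intervals with best folds of 2.43, 4.75 and 3.42. Its best intervals were in a coding exon, an intron and the 3' UTR, and 20 of its 23 summits lie within another gene record too, mostly ENSG00000257379 and MAP3K12.

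The polypyrimidine tract proteins repress exons by binding CU-rich RNA, and the members of the family replace each other through development. PTBP1 had the highest mean best fold of the 45 genes, 4.92 ± 2.27 (SD, n = 3), with 4.87, 2.68 and 7.22 in replicates 1, 2 and 3. These best intervals lay in an intron, the 3' UTR and a coding exon, so the SD also reflects different places. PTBP1 had, in replicate 2, an interval at exon 13 with a fold of 4.49 but a lower −log10 q. It had 7, 6 and 8 intervals, and 5 of its regions were in every list: 1 across exons 4 to 7 (chr19:804040-805182), 1 in exon 13 (chr19:808320-808825), 1 over exon 15 and the intron before it (chr19:810501-811222) and 2 in the 3' UTR (chr19:811383-811750 and chr19:811900-812270). The lists shared these places, while the fold of the region across exons 4 to 7 varied between 3.45 and 7.22. The intervals covered 43.3%, 46.0% and 82.6% of the MANE Select transcript.

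PTBP2, the neuronal counterpart, had 2, 3 and 1 intervals and no summit in an exon of its MANE Select transcript. Its best folds were 2.31, 5.95 and 2.29 in replicates 1, 2 and 3, averaging 3.52 ± 2.11 (SD, n = 3). The best intervals of replicates 1 and 2 lay at 1 place, with summits at 96805255 and 96805254 of chromosome 1, in an exon of a transcript annotated as retaining the intron, and replicate 3 had no interval there. PTBP3 had 17, 3 and 5 intervals, so replicate 1 supplied most of them, and 7 of those 17 lay in its 3' UTR.

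HNRNPL, which binds CA repeats, had 7, 1 and 9 intervals and best folds of 2.75, 2.15 and 3.81 in replicates 1, 2 and 3. Its region in every list was in coding exon 3 (chr19:38845620-38846122), at 2.08, 2.15 and 2.25-fold with summits 24 bases apart. Its paralogue HNRNPLL, a regulator of CD45 splicing in lymphocytes, had 3 intervals in replicate 3 only.

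HNRNPM, a regulator of exon inclusion in epithelial and mesenchymal cells, had 4, 2 and 7 intervals and best folds of 3.20, 4.72 and 2.84 in replicates 1, 2 and 3, averaging 3.59 ± 1.00 (SD, n = 3). In HNRNPM these best intervals lay in exons 1, 14 and 2, in that order. Its regions in every list spanned exon 14 and its flank (chr19:8485740-8486457, 2.47, 4.72 and 4.57-fold) and the last exon (chr19:8488695-8489068, 1.51, 1.77 and 1.41-fold). RBMX, an X-linked hnRNP G protein, had 1 interval in each list and the lowest mean best fold of the genes in every list, 1.75 ± 0.02 (SD, n = 3), from 1.73, 1.78 and 1.75. All 3 were in 3' UTR sequence, but only replicates 2 and 3 shared a place. HNRNPR was absent from replicate 1 and SYNCRIP (hnRNP Q) from replicate 3, and neither had a place in common between lists.

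The 3 hnRNP U genes, whose products bind RNA and chromatin as scaffold proteins, were all in every list. HNRNPUL1, which also acts in DNA damage signalling, had 13, 13 and 14 intervals and best folds of 4.02, 4.09 and 6.10 in replicates 1, 2 and 3, averaging 4.74 ± 1.19 (SD, n = 3). It had 10 regions in every list, more than any other of the 45 genes, in exons 3, 5, 6, 8 and 10 to 15 of 15, and the intervals covered 58.2%, 80.1% and 88.7% of its MANE Select transcript. By the mean over the lists, the highest folds of these regions were at exon 13 (4.02, 5.72 and 3.33) and exon 14 (3.54, 7.08 and 3.67), while in replicate 3 exon 3 (3.89) and exon 15 (3.79) were higher than both. The 3' end of HNRNPUL1 overlaps TGFB1, and 15 of its summits, in 5 of the 10 regions, lie in both genes. Among them are the best intervals of replicates 1 and 2, at exons 13 and 15, which therefore cannot be given to either gene. An intronic place (chr19:41273919-41274120) was found in replicates 2 and 3, at 4.97 and 6.10-fold.

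HNRNPU, the scaffold attachment factor, had 2, 1 and 6 intervals with best folds of 1.57, 1.74 and 3.61, and its region in every list was in the 3' UTR (chr1:244854179-244854389), at 1.57, 1.74 and 1.65-fold. HNRNPUL2 had 3, 1 and 5 intervals and best folds of 2.21, 2.91 and 3.35, with all 9 summits also in the readthrough record HNRNPUL2-BSCL2.

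**Figure D4:**
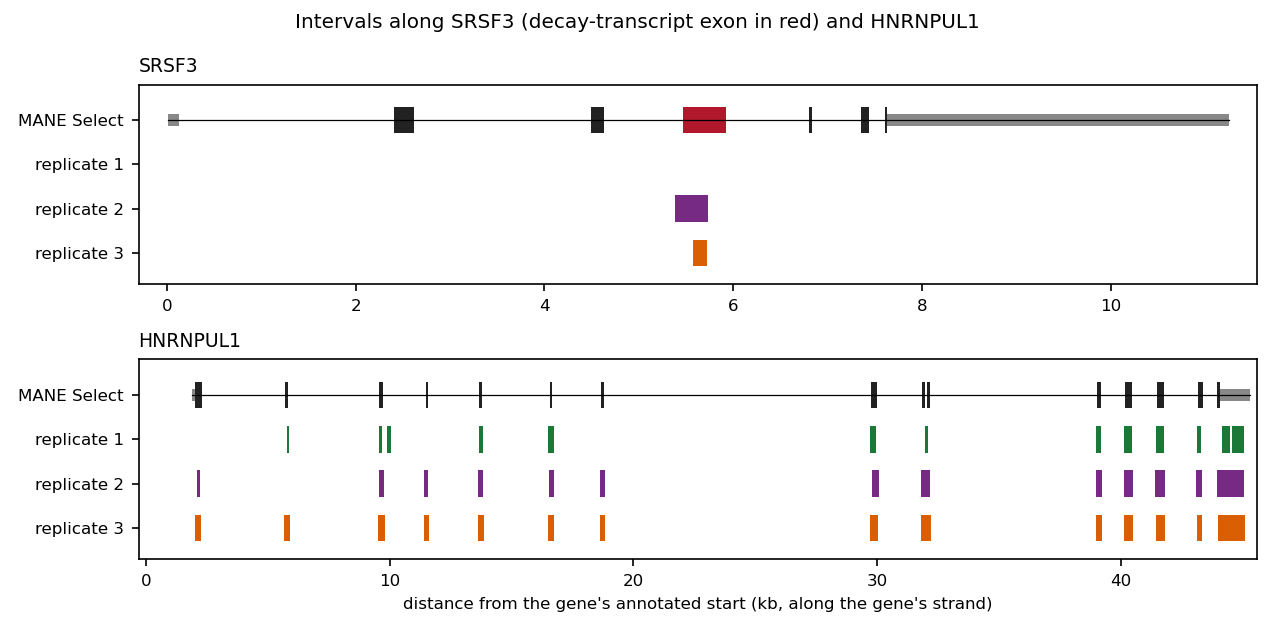
Intervals of the 3 lists along SRSF3 and HNRNPUL1, in kilobases from the annotated gene start along the strand of the gene. Rows and colours are the MANE Select transcript (black coding, grey UTR) and the deposited intervals of each replicate, and the red box is the 456-base exon of the decay transcript. The only SRSF3 intervals, 1 each in replicates 2 and 3, lie over the red box, and of the 40 intervals of HNRNPUL1 31 have the summit in a coding exon, 3 in the 3' UTR and 6 in an intron.

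Fold enrichments were lower than in other protein-coding genes. The median fold over the intervals of the 45 genes was 2.13, 2.50 and 2.33 in replicates 1, 2 and 3, against 2.62, 3.18 and 2.90 over intervals of other protein-coding genes. The difference averaged −0.58 ± 0.09 (SD, n = 3) and had the same sign in all 3 lists (sign-flip permutation test, exact and two-sided, p = 0.25, the lowest value possible with 3 lists). Both families lay below the other genes, the SR and SR-like genes at 2.14 ± 0.27 and the hnRNP genes at 2.40 ± 0.25, against 2.90 ± 0.28 (SD, n = 3). The median of the mean best fold was 2.64 over the 22 genes in every list and 3.65 over the 5155 protein-coding genes in every list, and of the 22 genes SRRM1, KHSRP, PTBP1 and HNRNPUL1 exceeded 3.65. With fold enrichments of at least 4, PTBP1 and HNRNPUL1 were the 2 genes left in every list (background 4.06%), and with q under 1e-05 there were 11 (background 15.1%). In replicate 1 HNRNPUL1 passed the fold of 4 with its exon 13 interval (4.02-fold), which also lies in TGFB1 and cannot be given to either gene. The highest of the 3 best folds was that of replicate 3 in 16 of the 22 genes. In 6 of the 22 the best interval lay in the same feature class in all 3 lists. The SD of a mean best fold can thus also reflect different places. Of the intervals of the 45 genes 28.6%, 25.3% and 39.3% in replicates 1, 2 and 3 had a pair of fold and p that 10 or more intervals of the same list share.

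Coding exons held the summits of 44.4%, 49.4% and 57.9% of the intervals of the 45 genes in replicates 1, 2 and 3, against 36.8%, 28.0% and 49.2% of those of other protein-coding genes. The mean difference was 12.6 ± 7.66 percentage points (SD, n = 3, exact sign-flip permutation p = 0.25, adjusted p = 0.25 over 4 features). Without SRRM1, SRRM2, SON and HNRNPUL1, a choice made after seeing the data, the coding share was 30.5% and the difference was −7.51 points. Without replicate 2, an alternative added after seeing the data for these differences, that of all 45 genes was 8.22 points, and at q under 1e-05 it was 20.8. The 4 are genes with a large number of coding regions or very long coding exons, so a lower coding share without them was built into the choice. Other protein-coding genes were not trimmed in the same way, so the reversal does not show what the excess rested on.

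The 3' UTR share was 29.9% ± 9.24 for the 45 genes and 32.4% ± 8.79 for other protein-coding genes (SD, n = 3), a difference of −2.49 points (exact sign-flip permutation p = 0.25, adjusted p = 0.25). Without the same 4 genes it was 43.6% and the difference turned to 11.2 points, and with fold enrichments of at least 4 the share was 10.6% and the difference −21.5 points. In the remaining 41 genes the 3' UTR share was 52.9%, 51.2% and 26.8% in replicates 1, 2 and 3, and the coding share was 27.1%, 17.1% and 47.2%, so replicate 3 stood apart from the others.

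Introns held fewer of the summits. Their share was 11.9%, 17.2% and 10.4% for the 45 genes in replicates 1, 2 and 3, against 17.2%, 37.5% and 20.6% for other protein-coding genes, a mean difference of −11.9 ± 7.58 points (SD, n = 3, exact sign-flip permutation p = 0.25, adjusted p = 0.25). The share was lower in each list, by the most in replicate 2. With a fold of 4 or more it came to 27.2% and the difference to −2.59 points, and without replicate 2 the difference was −7.79 points. It was 7.66% at q under 1e-05 and 5.46% without intervals on shared pairs of fold and p, the last an alternative chosen after seeing the data. Of the 49 intronic intervals 29 lay in regions of 1 list, and none of the 46 regions in every list was intronic in all lists. Of those regions 25 were coding only, 12 were 3' UTR only and 9 had summits in more than 1 feature. A further 15 intervals in 10 genes had their summit in other exon sequence, from transcripts with a retained intron or other transcripts that are not protein-coding. Of these, 2 in SRSF3 and 1 in SRRM1 also lay in exons of decay transcripts.

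**Figure D5:**
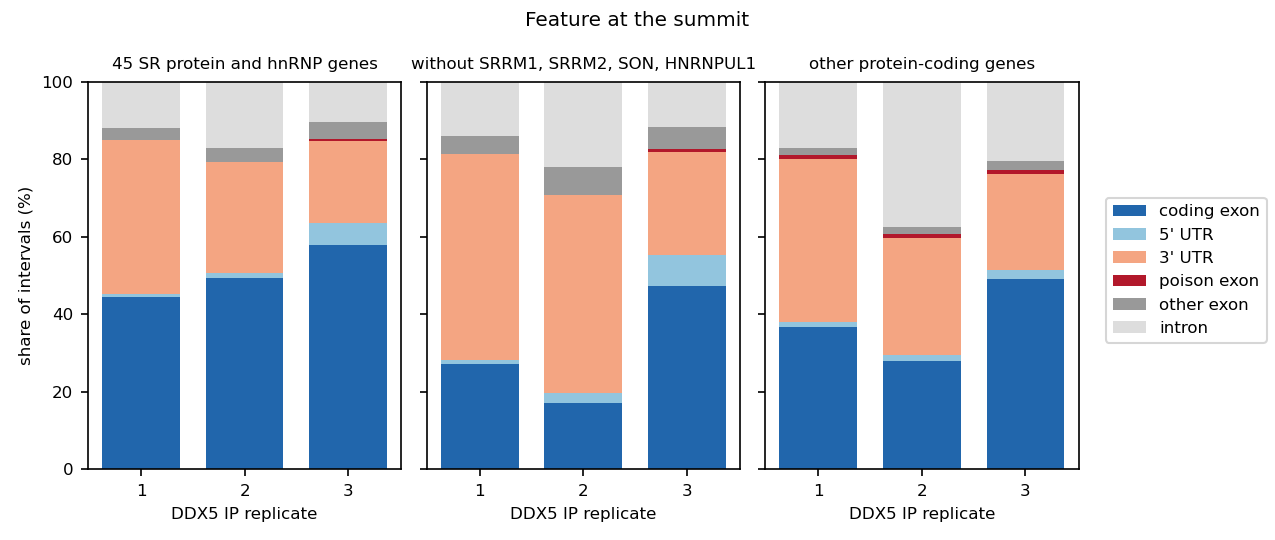
Share of intervals (percent, bars add up to 100) by the feature at the summit in each replicate, for the 45 SR and hnRNP genes (left), the same genes without SRRM1, SRRM2, SON and HNRNPUL1 (middle) and other protein-coding genes (right). The coding share of the 45 genes is above that of other genes in all 3 lists on the left and falls to 30.5% on average in the middle.

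Of the 45 genes 18 have bases that belong to exons of decay transcripts and to no other transcript, 5276 bases in all or 2.85% of their MANE Select and poison exon bases, and 1 gene, HNRNPA1, had a summit there. Among protein-coding genes with such bases 4.88% had a summit in them in at least 1 list. The HNRNPA1 summit, in replicate 3 only (chr12:54282063-54282222, 2.10-fold), lay in a stretch of 38 bases. The share of intervals with such a summit was 0.182% ± 0.315 for the 45 genes and 0.957% ± 0.0552 for other protein-coding genes (SD, n = 3), a difference of −0.774 points (exact sign-flip permutation p = 0.25, adjusted p = 0.25). The HNRNPA1 stretch also lies in ENSG00000258344, and with summits in no other gene the share of the 45 genes was 0% and the difference −0.093 points. The rule leaves out exons that other non-coding transcripts also cover, such as the SRSF3 exon above. The share therefore does not speak for all exons of decay transcripts.

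When exons of decay transcripts were counted wherever no protein-coding transcript covers them, 27 of the 45 genes had such bases and 3 had a summit in them, SRSF3, SRRM1 and HNRNPA1, with a background of 5.77%. SRSF3 was the only gene of the 3 to have one in more than 1 list. Some intervals reached into such exons without a summit there. In HNRNPUL1 a 510-base stretch of a decay transcript (chr19:41276299-41276808) was touched by an interval in all 3 lists, whose summits lay in coding exon 5. In PCBP2 it was touched in replicates 1 and 3, and in SRSF10 in replicate 3.

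Base composition around the summits, in windows of 50 bases on each side, differed by feature. In 3' UTRs the GC content was 39.8%, 40.5% and 37.1% for the 45 genes in replicates 1, 2 and 3, against 44.8%, 45.3% and 45.1% for other protein-coding genes. The means were 39.1% ± 1.81 and 45.1% ± 0.247 (SD, n = 3, exact sign-flip permutation p = 0.25). The members' windows were poorer in GC in every list, and without SRRM1, SRRM2, SON and HNRNPUL1 the value was 38.8% ± 1.78. In coding exons GC was higher instead, at 54.7% ± 1.25 in the 45 genes and 51.5% ± 0.926 in other genes (SD, n = 3, exact sign-flip permutation p = 0.25).

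Motifs known from these proteins were counted in the same windows, on the strand of the gene and on the opposite strand, as a description of the letters. The motif GGGG, a run bound by hnRNP F/H proteins, was in 16.5% ± 1.37 of 3' UTR windows of the 45 genes and in 26.4% ± 0.596 of those of other genes (SD, n = 3), on the gene strand. In coding windows it was in 27.8% ± 2.92 for the 45 genes and 23.4% ± 0.666 for other genes (SD, n = 3). Without SRRM1, SRRM2, SON and HNRNPUL1 it was in 39.6% ± 3.12 (SD, n = 3), from only 23, 7 and 60 windows in replicates 1, 2 and 3. In coding windows GGGG on the opposite strand, which is CCCC on the gene strand, was in 41.9% ± 1.96 and 33.0% ± 2.91 (SD, n = 3). The motif GAAGAA is a GA-rich element bound by SR proteins and TRA2. On the gene strand it was in 16.1% ± 4.63 of coding windows of the 45 genes and 11.5% ± 1.02 of those of other genes (SD, n = 3). Without the same 4 genes it was in 4.78% ± 5.01 (SD, n = 3), below the 11.5% of other genes. That value comes from the same 23, 7 and 60 windows, with 4.35%, 0% and 10.0% in replicates 1, 2 and 3. CTCTCT, a polypyrimidine element bound by PTB proteins, was in 5.04% ± 2.47 and 3.61% ± 0.0849 of coding windows and did not differ in the same direction in all lists.

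Other genes of the pathway, from lists of related factors, were set beside the family. Of 12 kinases and import factors of SR proteins 8 had an interval in every list (background 25.7%), with CLK3, a kinase that phosphorylates SR proteins, at a mean best fold of 5.05 ± 1.99, PPIG, a cyclophilin that binds SR proteins, at 3.81 ± 1.33 and SRPK3, an SR protein kinase of muscle, at 3.65 ± 0.66 (SD, n = 3). CLK1 and CLK4, close relatives of CLK3, had none in any list. Of 15 factors of nonsense-mediated decay 8 had an interval in every list (background 25.7%) and all 15 in at least 1 (background 51.6%). SMG5, which acts on phosphorylated UPF1, had a mean best fold of 5.36 ± 2.88 and RNPS1, a component of the exon junction complex, 4.06 ± 1.20 (SD, n = 3). Of 35 other regulators of splice site choice 26 had an interval in every list (background 25.7%). MBNL2, a muscleblind protein, had a mean best fold of 5.37 ± 3.48 and RBFOX1, a regulator of muscle and neuronal exons, 4.87 ± 1.33 (SD, n = 3). The spread of these values over the lists is large, so their order within each group is not resolved.

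Copies of the 45 genes elsewhere in the genome were counted as well. Of 146 pseudogenes named after them, none had an interval in replicates 1 and 2 and 2 had 1 each in replicate 3, copies of HNRNPC and HNRNPL. The share of all annotated pseudogenes with an interval was not computed, so this count has no background and is not read as low or high. Of the 396 intervals of the 45 genes 89 had another gene at the summit, and 6 genes had no other kind. With summits in no other gene 17 of the 45 genes were still in every list (background 19.0%).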

How the data were processed

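Peak lists of 3 DDX5_IP samples were analysed. Per the submitters' processing notes, peaks come from a pipeline that names MACS2 2.2.7.1, STAR 2.6.1d, cutadapt 1.11, SAMtools 1.10, FastQC 0.11.8 and bcl2fastq 2.20, on GRCh38/hg38. Parameters and the control of the peak calls are not given in the sources used here. The authors deposited a fold (a ratio), a −log10 p-value and a −log10 q-value for each summit. The deposited score was not used. The largest q-value was 0.0499. Depth is unknown.

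Summits sharing an interval were counted once, at the highest −log10 q. Features came from GENCODE 44, in the order coding exon, 5' UTR, 3' UTR, poison exon, other exon and intron, and a summit counted for every gene that held it. Shares were compared with other protein-coding genes by a two-sided, exact permutation test that flips signs over the 3 lists, with Benjamini-Hochberg adjustment over 4 features. Such p-values and SDs measure only the spread between these lists. Python 3.11.15, numpy 2.4.6, pandas 2.3.3, scipy 1.17.1 and matplotlib 3.10.9 were used. Every interval ended within its chromosome. The steps were tested on simulated data, and all 13895 planted intervals were read back with gene and feature.

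The genes, lists and tests were chosen with earlier results of these data known. Full values were given to genes in every list with the 4 highest and 2 lowest mean best folds in each family, with 5 or more regions in every list, or with a poison exon summit, and to up to 3 genes of each list of related factors. Some genes that this rule took are not reported here. Other genes of the 45, SRSF3 among them, were described so that every gene is accounted for, after their values were seen. Alternatives were a lower q, a minimum fold, each list left out, equal list lengths, other overlap and poison exon rules, and summits in no other gene.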

Additional observations from a re-analysis of the deposited data

How the results depend on the processing

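With q under 1e-05, 11 genes and 25 regions were in every list, and a list held 69.3 intervals of the 45 genes on average, with 58.7% in coding exons and 7.66% in introns and a median best fold of 3.53. With fold enrichments of at least 4 there were 2 genes, 1 region and 9.67 intervals, with 10.6% in 3' UTRs, 27.2% in introns and a median best fold of 5.13. Counting every summit on its own gave 209 summits per list on average, and reciprocal overlap of 50% gave 30 regions. Poison exon shares were 0.930% when exons of decay transcripts were counted outside coding transcripts only and 1.46% when any base of an interval counted. Leaving out each list in turn gave 23 to 27 genes in every remaining list and 58 to 79 regions, the most without replicate 2. Chosen after seeing the data was leaving out intervals whose pair of fold and p is shared by 10 or more, which gave 5.46% in introns. Leaving out SRRM1, SRRM2, SON and HNRNPUL1 was also chosen after seeing the data. It gave 17 regions in every list and coding and 3' UTR shares of 30.5% and 43.6%. The differences of −7.51 and 11.2 points reversed the direction. These genes hold many coding intervals and shared regions, so such shifts were built into the choice. For the differences in feature share a minimum fold, each list left out and every summit on its own were also added after seeing the data. Under the other alternatives the mean differences kept their direction. The means ran between 8.22 and 20.8 points for coding exons, −21.5 and −1.97 for 3' UTRs, −15.2 and −2.59 for introns, and −0.929 and −0.093 for poison exons. Single lists did not all agree in direction for introns at a fold of at least 4 or with summits in no other gene. The same held for poison exons without intervals on shared pairs of fold and p. The causes were not tested, except that stricter thresholds leave fewer intervals by construction. No paired analysis was possible because only the DDX5_IP lists, 1 group, were analysed here. The number of lists limits precision, and 3 lists cannot give a sign-flip p below 0.25.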
